A study of Homo sapiens with 6 samples.

Results

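The genes described here are 10 transcriptional outputs and feedback inhibitors of ERK signalling, namely the Sprouty genes SPRY1, SPRY2 and SPRY4, the SPRED genes SPRED1 and SPRED2, the receptor inhibitor ERRFI1, the PEA3 transcription factors ETV1, ETV4 and ETV5, and PHLDA1. They were chosen by symbol, from probe sets annotated with exactly 1 gene, with the brightest probe set to be taken where a gene had several. All 10 were measured, each by 1 probe set, out of 18417 genes in the table. The samples were U-87 cells, an established human glioma line, of which 3 arrays were labelled P68 knockdown and 3 were labelled P68 wild type. P68 is the RNA helicase encoded by DDX5, and cells were transfected with siP68, a small interfering RNA, or with a reagent given only as NC. The labels do not say that the wild-type arrays received NC, and nothing in them tells whether replicate arrays are separate cultures. The p-values below therefore rest on array-to-array spread that may be technical. The study's title links P68 with DUSP5, a phosphatase that inactivates ERK, and the comparison of knockdown with wild type therefore also bears on whether genes that follow ERK activity differed between the groups.

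Growth factor receptors activate RAS, which activates the kinase cascade of RAF, MEK and ERK. Active ERK raises the transcription of its own inhibitors: Sprouty proteins act between the receptor and RAF, SPRED proteins bring the RAS inactivator neurofibromin to the membrane, and ERRFI1, also called MIG6, binds and blocks the EGF receptor kinase. The PEA3 factors are ETS-family activators whose genes are repressed by Capicua, the product of CIC, until ERK signalling relieves that repression, and transcripts of this kind are widely used as a readout of ERK activity.

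None of the 10 genes passed the test for a difference between knockdown and wild-type arrays. Their log2 differences, knockdown minus wild type, ran from -0.21 for SPRY1 to 0.13 for PHLDA1, with 5 above 0 and 5 below. With the arrays centred on the median, 3 lay above 0 and 7 below, with SPRED2 and ETV5 just below it. The median of the 10 differences was -0.0017, against a median of 0.010 over all genes, and the median absolute difference was 0.070, against 0.090 over all genes. In a limma fit over all 18417 genes, 0 of the 10 passed an adjusted p of 0.05 (adjusted p = 0.902 to 0.995), and the fit called 0% of all genes. At an unadjusted p under 0.05, 0 of the 10 were counted, where 5.09% of all genes were. The 2 groups overlapped for all 10 genes. Over all genes, 10.1% had groups that did not overlap, with the knockdown above in 5.98% and below in 4.15%. With only 10 genes, a count of 0 is near that share and does not set them apart. In a two-sided exact permutation test over the arrays, the p of the 10 genes ran from 0.2 to 1, and 0.1 is the smallest that 3 arrays against 3 allow.

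**Figure D1:**
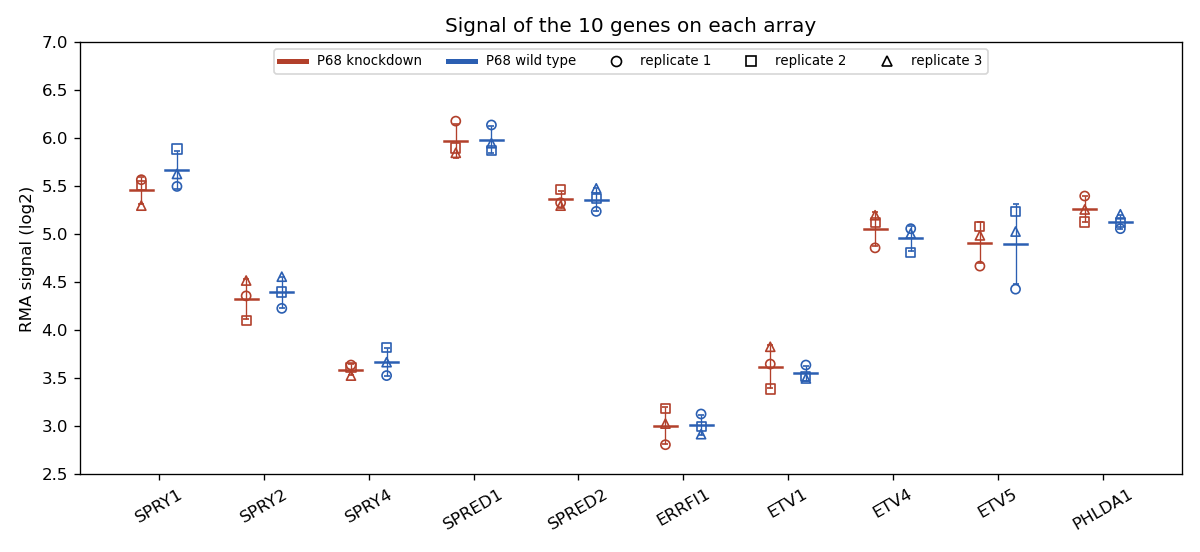
Log2 RMA signal (vertical axis) of each of the 10 genes (horizontal axis), with P68 knockdown arrays on the left in red and P68 wild-type arrays on the right in blue. Marker shapes give the replicate number, short bars the group mean and whiskers the SD (n = 3 each). The 2 groups overlap for every gene, and ETV5 has the widest spread, with wild-type replicate 1 at 4.43.

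DDX5, the targeted gene, was lower on each knockdown array than on any wild-type array. The log2 signal of DDX5 was 9.47, 9.79 and 9.91 on the knockdown arrays, against 10.09, 10.25 and 10.30 on the wild-type arrays. The knockdown signal was 71.2% of the wild type (95% confidence interval 58.4% to 86.9%). For DDX5 the limma p was 0.0034 unadjusted and 0.902 adjusted over all genes. The exact permutation test over the arrays gave 0.1, the smallest p that 3 arrays against 3 allow. The values below compare cells with that difference in DDX5 RNA, and the arrays do not measure P68 protein.

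The 3 Sprouty genes all had lower means in the knockdown, and none passed the test. SPRY1, a membrane-associated inhibitor of receptor signalling to ERK, gave log2 signals of 5.57, 5.51 and 5.30 on knockdown arrays 1 to 3, against 5.50, 5.89 and 5.63 on wild-type arrays 1 to 3, and this order of replicates is kept for each gene. Knockdown replicate 3 was the lowest of the 6 arrays and wild-type replicate 2 the highest, while knockdown replicates 1 and 2 lay above wild-type replicate 1. The knockdown mean was 5.46 ± 0.14, against 5.67 ± 0.20 for the wild type (SD over 3 arrays), and the log2 difference was -0.21 ± 0.13 (SE). The knockdown signal was 86.3% of the wild type (95% confidence interval 70.9% to 105%), and the limma p was 0.124 unadjusted and 0.902 adjusted. Leaving out wild-type replicate 2 gave -0.105, leaving out knockdown replicate 3 gave -0.13 and leaving out wild-type replicate 1 gave -0.30.

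SPRY2, which binds the ubiquitin ligase CBL and the adaptor GRB2 and limits growth factor signalling, gave 4.36, 4.10 and 4.52 in the knockdown, against 4.23, 4.40 and 4.56 in the wild type. The lowest value belonged to knockdown replicate 2, and the other two knockdown arrays fell within the wild-type range. Its log2 difference was -0.070 ± 0.13 (SE), with an interval of 77.6% to 117% of the wild-type signal, and it was 0.043 without knockdown replicate 2. SPRY4, an inhibitor of RAS activation downstream of receptors, gave 3.64, 3.61 and 3.53 in the knockdown, against 3.53, 3.82 and 3.67 in the wild type. The 3 knockdown arrays lay within 0.11 of each other, inside the range of the wild-type arrays. Its log2 difference was -0.080 ± 0.11 (SE), and the interval was 80.1% to 112% of the wild-type signal. The difference was -0.0067 without wild-type replicate 2. The mean signal of SPRY4 fell in the lowest 40% of all genes, and without detection calls such a signal may be background.

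Both SPRED genes had nearly equal means in the groups. SPRED1, whose loss in people causes Legius syndrome through unrestrained RAS signalling, gave 6.18, 5.90 and 5.85 in the knockdown, against 6.14, 5.87 and 5.95 in the wild type. Replicate 1 was the highest array in each group, and the groups covered nearly the same range. Its log2 difference was -0.010 ± 0.12 (SE), with an interval of 82.2% to 120% of the wild-type signal. SPRED2, a related inhibitor of RAF activation, gave 5.33, 5.47 and 5.30 in the knockdown, against 5.24, 5.37 and 5.48 in the wild type. All 3 knockdown values lay within the wild-type range, the log2 difference was 0.0033 ± 0.11 (SE), and the interval was 85.0% to 118% of the wild-type signal. Its sign was negative with the arrays centred on the median, after repeated quantile normalisation and after cyclic loess.

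ERRFI1, the feedback inhibitor of EGF receptor kinase activity, gave 2.81, 3.19 and 3.03 in the knockdown, against 3.13, 3.00 and 2.92 in the wild type. The knockdown arrays held both the lowest and the highest of the 6 values. The log2 difference was -0.0067 ± 0.12 (SE), with an interval of 82.6% to 120% of the wild-type signal. ERRFI1 was likewise among the dimmest 40% of genes, so its signal too may be background.

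**Figure D2:**
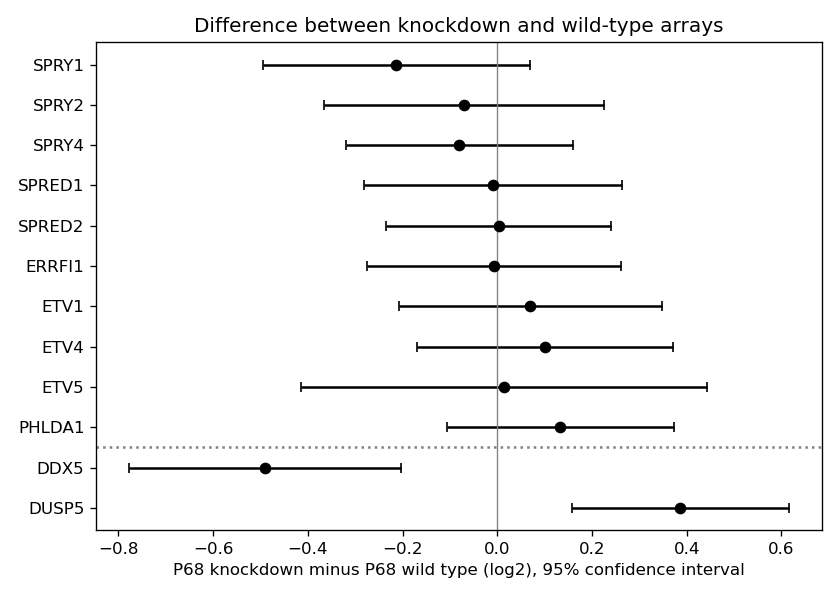
Log2 difference, P68 knockdown minus P68 wild type (horizontal axis), for the 10 genes, and below the dotted line for DDX5 and DUSP5. Points are the differences from the limma fit over all genes and bars their 95% confidence intervals, from 3 arrays per group. The intervals of all 10 genes include 0, and those of DDX5 and DUSP5 do not.

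ETV1 and ETV4 had slightly higher means in the knockdown, as did ETV5 in the values as deposited but not after centring, repeated quantile normalisation or cyclic loess, and none of the 3 PEA3 factors passed the test. ETV1, also called ER81, gave 3.65, 3.39 and 3.83 in the knockdown, against 3.64, 3.52 and 3.50 in the wild type. The knockdown arrays again held both the lowest and the highest value. The log2 difference was 0.070 ± 0.12 (SE), with an interval of 86.6% to 127% of the wild-type signal, and ETV1 was also among the dimmest 40% of genes. ETV4, the founding PEA3 factor, gave 4.86, 5.12 and 5.20 in the knockdown, against 5.06, 4.81 and 5.01 in the wild type. Knockdown replicates 2 and 3 exceeded every wild-type array, and knockdown replicate 1 did not. The log2 difference was 0.10 ± 0.12 (SE), with an interval of 88.9% to 129% of the wild-type signal, and it was 0.025 without wild-type replicate 2.

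ETV5, also called ERM, was the most variable of the 10 genes. It gave 4.67, 5.08 and 4.99 in the knockdown, against 4.43, 5.24 and 5.03 in the wild type. Replicate 1 was the lowest array of each group, and the wild type held both the lowest and the highest of the 6 values. The knockdown mean was 4.91 ± 0.22, against 4.90 ± 0.42 for the wild type (SD over 3 arrays), and the SD pooled over the groups was higher than that of 97.0% of all genes. The log2 difference of 0.013 ± 0.19 (SE) became -0.22 without wild-type replicate 1, whereas it was 0.18 without wild-type replicate 2. The interval of 75.0% to 136% of the wild-type signal was the widest of the 10.

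PHLDA1, a pleckstrin homology-like protein whose transcript follows ERK activity in many tumour lines, had the largest positive difference of the 10. It gave 5.40, 5.13 and 5.26 in the knockdown, against 5.06, 5.12 and 5.21 in the wild type. Knockdown replicates 1 and 3 exceeded every wild-type array, and knockdown replicate 2 fell inside the wild-type range. The knockdown mean was 5.26 ± 0.14, against 5.13 ± 0.075 for the wild type (SD over 3 arrays). The log2 difference was 0.13 ± 0.11 (SE), and limma gave an adjusted p of 0.912. The interval was 92.9% to 129% of the wild-type signal. With single arrays left out, the PHLDA1 difference lay between 0.065 and 0.20.

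The confidence intervals give the size of change that these arrays leave possible. Across the 10 genes, the lowest bound was the 70.9% of SPRY1 and the highest the 136% of ETV5. For SPRY4, ERRFI1 and ETV1 the intervals refer to signal that may be background. The other 7 genes were above the lowest 40%, SPRY2 only just, at the 42nd percentile. Of the 4 neuron markers measured, 2 were also above it and 2 were not. Without detection calls, lying above that cut does not show that a gene was expressed. DUSP5, measured in the same fit, had an interval of 112% to 153% of the wild-type signal, with 5.78, 5.80 and 5.62 in the knockdown against 5.44, 5.32 and 5.28 in the wild type and a limma adjusted p of 0.902. The difference between DUSP5 and the 10 genes was not tested.

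**Figure D3:**
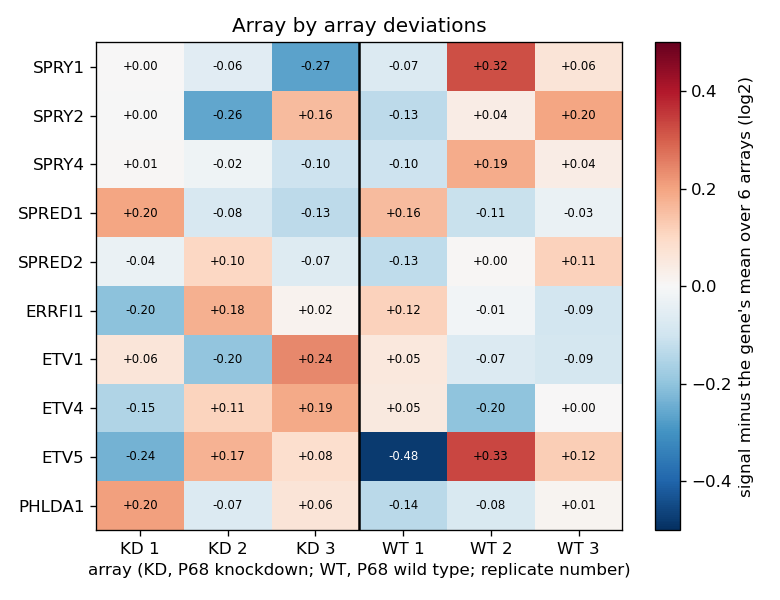
Signal of each of the 10 genes (rows) on each array (columns, P68 knockdown left and P68 wild type right) minus that gene's mean over the 6 arrays, on the log2 scale, in colour and as printed values. No column is high or low throughout, and the darkest cell is ETV5 in wild-type replicate 1, at -0.48.

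No array was high for all 10 genes or low for all 10. Wild-type replicate 1 stood at an extreme of its group for all 10 genes, highest for SPRED1, ERRFI1, ETV1 and ETV4 and lowest for the other 6. Over all genes, that array was at an extreme of its group for 73.3%. The 2 remaining wild-type arrays were each at an extreme for 5 of the 10 genes, while knockdown replicates 1, 2 and 3 were so for 7, 6 and 7. Over all genes the shares were 67.9% and 65.3% for wild-type replicates 2 and 3. They were 72.0%, 71.6% and 61.5% for knockdown replicates 1, 2 and 3. Among the knockdown arrays, replicate 1 was highest for 4 of the genes and lowest for 3.

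**Figure D4:**
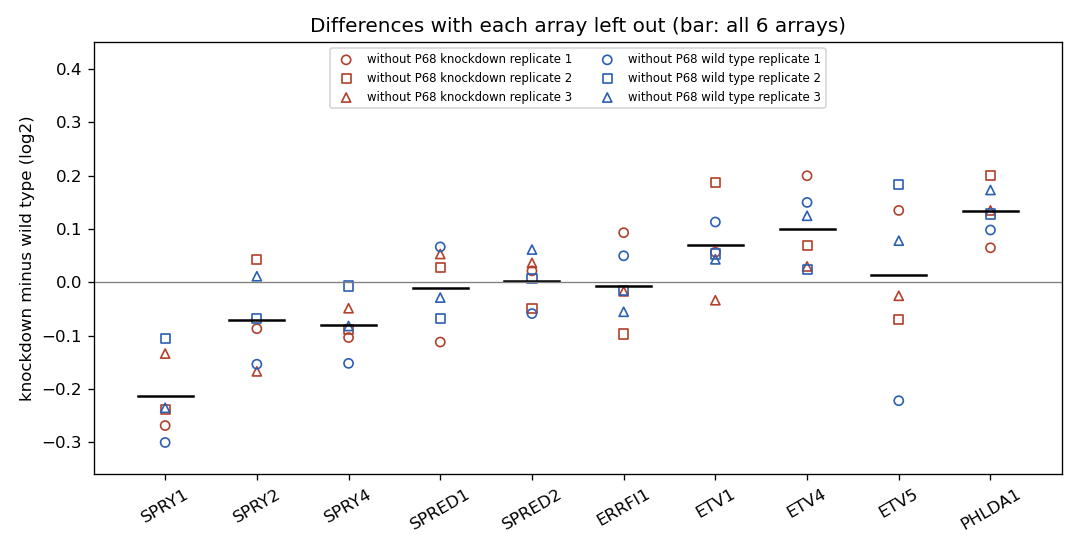
Log2 difference, P68 knockdown minus P68 wild type (vertical axis), for each of the 10 genes with each of the 6 arrays left out in turn. Red markers leave out a knockdown array and blue markers a wild-type array, shapes give the replicate number and black bars the difference from all 6 arrays. SPRY1 and SPRY4 stay below 0 and ETV4 and PHLDA1 above 0 in every case shown, and the markers of the other 6 genes lie on both sides of 0.

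Sequence upstream of the start sites was read to see which of the 10 genes carry letters bound by Capicua or ETS factors. RefSeq start sites of build GRCh38.p14 were available for 8 of the genes, with 17 windows of 250 bases before the start. ETV4 and ETV5 were not analysed here. The Capicua octamer was searched as TGAATGAA, TGAATGGA, TCAATGAA and TCAATGGA on both strands. It was found in 1 window, of ETV1, and in 3.18% of all 35116 windows of that length. The ETS letters CCGGAA were found on either strand in 6 windows, of SPRY1, SPRY2, ETV1 and PHLDA1, and in 14.5% of all windows. The AP-1 letters TGANTCA were found in 0 of the 17 windows and in 6.57% of all windows. Windows of 1 gene can overlap, so these counts are not independent, and a match describes letters and is not a measured site.

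The windows of ETV1 and SPRY2 that end at the outermost annotated start of each gene are shown, ETV1 because it holds the Capicua octamer beside an ETS match and SPRY2 as a Sprouty gene with an ETS match. Both genes lie on the minus strand, the windows run 5′ to 3′ towards the gene, and capitals mark the matches. They cover chr7:13991426-13991675 for ETV1 and chr13:80341127-80341376 for SPRY2, upstream of the annotated transcripts.
ETV1: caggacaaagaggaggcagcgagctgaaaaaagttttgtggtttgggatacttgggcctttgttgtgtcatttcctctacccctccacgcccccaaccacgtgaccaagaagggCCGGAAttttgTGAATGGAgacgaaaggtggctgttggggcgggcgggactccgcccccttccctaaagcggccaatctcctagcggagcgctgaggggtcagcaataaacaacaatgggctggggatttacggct
SPRY2: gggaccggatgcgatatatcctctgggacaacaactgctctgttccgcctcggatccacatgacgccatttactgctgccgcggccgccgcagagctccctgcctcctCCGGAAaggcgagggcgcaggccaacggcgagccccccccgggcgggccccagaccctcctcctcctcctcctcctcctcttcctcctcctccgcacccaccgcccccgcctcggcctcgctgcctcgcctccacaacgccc
In ETV1 the ETS match CCGGAA lies from 136 to 131 bases before the start and the octamer TGAATGGA from 125 to 118 bases before it. In SPRY2 the ETS match lies from 142 to 137 bases before the start. The log2 differences of the genes with an ETS match were -0.21 for SPRY1, -0.070 for SPRY2, 0.070 for ETV1 and 0.13 for PHLDA1, on both sides of 0.

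Genes that regulate the PEA3 factors did not pass the test either. CIC, the Capicua repressor, gave 5.95, 6.04 and 5.85 in the knockdown, against 6.03, 5.89 and 5.96 in the wild type, a log2 difference of -0.013 ± 0.10 (SE). ATXN1, a partner of Capicua, gave a log2 difference of 0.077 ± 0.12 (SE). COP1 and DET1 belong to a ubiquitin ligase that degrades PEA3 proteins. COP1 gave a log2 difference of -0.20 ± 0.12 (SE), and DET1 gave 0.023 ± 0.13 (SE). Leaving out knockdown replicate 1 gave COP1 a difference of -0.11, and leaving out knockdown replicate 3 gave -0.32 (limma unadjusted p = 0.026, adjusted p = 0.765). Without knockdown replicate 3, 1183 of all 18417 genes had an unadjusted p under 0.05. The COP1 signals were 5.55, 5.69 and 5.96 in the knockdown, against 5.94, 6.02 and 5.85 in the wild type, so that knockdown replicate 3 overlapped the wild type. Of these 4 measured genes, 2 lay above 0 and 2 below, and with all 6 arrays 0 passed the test in limma, adjusted or not.

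Relatives and partners of the Sprouty and SPRED proteins were compared in the same way. Of 14 measured genes in a list of 16, 8 lay above 0 and 6 below around a median of 0.042 on the log2 scale, and 0 passed an adjusted or an unadjusted p of 0.05 in limma. SOS2, an exchange factor that loads RAS with GTP, had the largest absolute difference of the list. It gave 4.45, 3.93 and 4.74 in the knockdown, against 4.59, 4.70 and 5.06 in the wild type, and its log2 difference was -0.41 ± 0.20 (SE; limma adjusted p = 0.902). Knockdown replicate 3 lay above wild-type replicates 1 and 2, and the difference was -0.19 when knockdown replicate 2 was left out, -0.27 when wild-type replicate 3 was, and -0.59 when knockdown replicate 3 was (limma unadjusted p = 0.0114, adjusted p = 0.765). With the replicate number as a block, the unadjusted limma p of SOS2 was 0.0111 (adjusted p = 0.791). In that fit 1149 of all 18417 genes had an unadjusted p under 0.05. The knockdown signal of SOS2 lay below the wild-type signal in each same-numbered pair, although the labels do not state that the arrays are paired. SOS2 was named for its large difference, and the share of all genes with 1 direction in each such pair was not counted.

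Other transcripts that follow ERK output lay on both sides of 0. Of the 16 measured, the log2 difference was above 0 for 8 and below for 8, and its median was -0.0067. In limma 0 of them passed the adjusted threshold, and 1, DUSP5, had an unadjusted p under 0.05, where 5.09% of all genes did. Of the 16, 4 had groups that did not overlap, where 10.1% of all genes did. The knockdown lay above in 3 of them and below in 1, where all genes gave 5.98% above and 4.15% below. Of 19 other ETS factors, it lay above without overlap in 0 and below in 2. Of 11 EGF receptor genes, feedback inhibitors and PHLDA1 relatives, it lay above in 1 and below in 0. The groups overlapped for all 14 Sprouty and SPRED relatives and partners and all 4 PEA3 regulators. Whether the lists differed in this was not tested. DUSP6 and DUSP4, phosphatases of ERK that are often read beside the Sprouty genes, were picked out after their values were seen. DUSP6 gave 4.64, 4.50 and 4.87 in the knockdown, against 4.21, 4.78 and 4.66 in the wild type, a log2 difference of 0.12 ± 0.16 (SE) that was -0.050 without wild-type replicate 1. DUSP4 gave 4.11, 4.58 and 4.16 in the knockdown, against 4.27, 4.23 and 4.93 in the wild type, a log2 difference of -0.19 ± 0.19 (SE) that was 0.033 without wild-type replicate 3.

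Of 19 other measured ETS factors, 10 lay above 0 and 9 below around a median of 0.023 on the log2 scale, and 0 passed either threshold in limma. ELK1, an ETS factor phosphorylated directly by ERK, differed most of these. It gave 6.71, 5.92 and 6.27 in the knockdown, against 6.12, 6.10 and 5.91 in the wild type, a log2 difference of 0.26 ± 0.17 (SE) that was 0.052 without knockdown replicate 1. Leaving out knockdown replicate 2 gave 0.45 (limma unadjusted p = 0.0153, adjusted p = 0.994), in a fit where 684 of all genes had an unadjusted p under 0.05. Of 11 EGF receptor genes, feedback inhibitors and PHLDA1 relatives, 6 lay above 0 and 5 below, with a median of 0.023, and 0 passed either threshold. PHLDA2, a paralog of PHLDA1, differed most, at 6.70, 7.03 and 6.64 in the knockdown, against 6.62, 6.38 and 6.55 in the wild type. Its groups did not overlap, as was so for 10.1% of all genes, with the knockdown above in 5.98%. Its log2 difference was 0.27 ± 0.13 (SE; limma adjusted p = 0.902), or 0.15 without knockdown replicate 2. Without knockdown replicate 3 it was 0.35 (limma unadjusted p = 0.0348), in a fit where 1183 of all genes had an unadjusted p under 0.05.

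**Figure D5:**
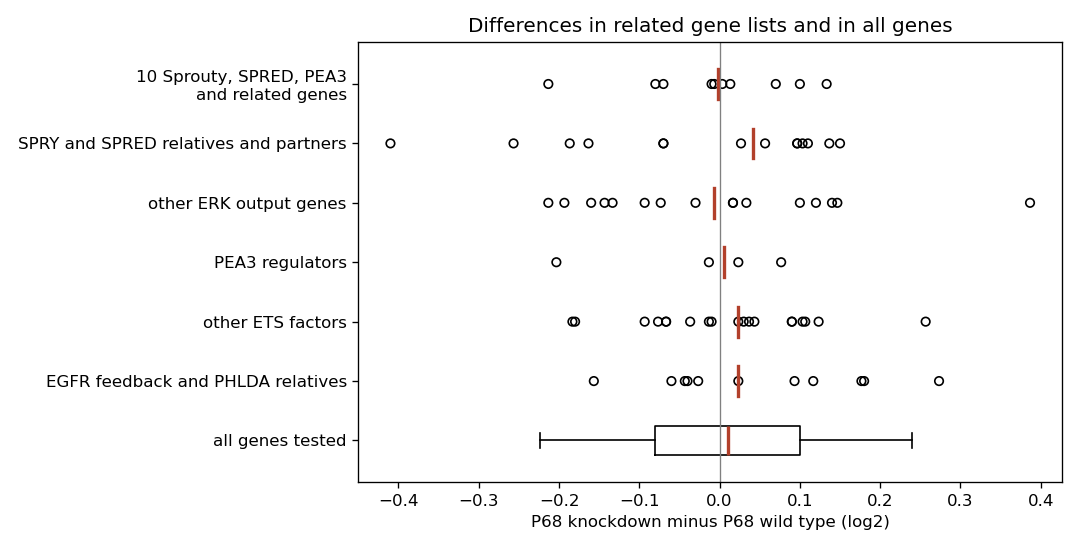
Log2 difference, P68 knockdown minus P68 wild type (horizontal axis), for the 10 genes and for 5 lists of related genes (rows), each circle 1 gene and each red line the median. The bottom row is all genes tested, with a box between the quartiles and whiskers from the 5th to the 95th percentile, at -0.22 and 0.24. All 10 genes lie within those whiskers, and SOS2, GAB1, DUSP5, ELK1 and PHLDA2 lie outside.

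The arrays were alike in range after RMA, with medians from 4.32 to 4.37 on the log2 scale. They did not group by knockdown. Knockdown replicates 1 and 2 had the lowest correlation of any 2 arrays, at r = 0.979. Knockdown replicate 3 correlated with the wild-type arrays at 0.987 to 0.990, against 0.985 and 0.986 with knockdown replicates 1 and 2. Of the 8 glioma and astroglial markers examined, VIM, NES, GFAP, OLIG2 and CHI3L1 were brighter than the dimmest 40% of genes, and CD44, S100B and SOX2 were not. Of the 5 microglia and leukocyte markers, PTPRC, AIF1 and CX3CR1 were also among the dimmest 40%, and CSF1R and CD68 were not. CD68, a lysosomal protein used as a macrophage marker, had a log2 difference of 0.50 with a limma adjusted p of 0.902. Of the 4 neuron, 4 endothelial and 3 oligodendrocyte markers measured, 2, 3 and 2 were brighter than the dimmest 40%, so this brightness does not identify a cell type. Of the 24 markers measured over 5 cell types, 3 had an unadjusted p under 0.05 in limma, all higher in the knockdown. They were CD68, the neuron marker STMN2 and the endothelial marker CLDN5. Over all genes 5.09% had such a p, 557 of them higher and 380 lower in the knockdown. The markers' part in the values above was not tested.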

How the data were processed

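Total RNA of U-87 cells was hybridised to 3 arrays for P68 knockdown and 3 for P68 wild type. The deposited table holds log2 signals for 29096 probe sets. RMA, which corrects background, equalises array distributions and summarises probes, was applied by the authors, per the submitters' processing notes, which hides any shift common to most genes. Its software and filters were not given in the sources used here. Detection calls were not used. Gene symbols came from the platform annotation: 19460 probe sets had 1 symbol, 1754 several and 7882 none. The brightest probe set by mean stood for each of 18417 genes.

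All genes were fitted with limma 3.58.1 (functions lmFit and eBayes, with group alone in a two-sided test) in R 4.3.3, with Benjamini-Hochberg adjustment over all genes and a threshold of 0.05. Intervals are at 95%, and the number of arrays and the spread between them limit the precision. The fit was tested on simulated data with added differences larger than those of the 10 genes or DDX5. That test therefore does not tell how often differences of the sizes seen here would be found. The 10 genes, the lists and the rule for named genes were chosen with earlier results of these data known. Named were the 10 genes, DDX5, DUSP5, the measured PEA3 regulators and, of each related list, up to 4 genes at an unadjusted p under 0.05 or else the gene with the largest absolute difference. CD68, STMN2 and CLDN5 were named after their values were seen. Same-numbered knockdown and wild-type arrays had deviations from their group means that correlated with r = 0.27, -0.027 and 0.13 over genes. Differently numbered arrays gave r from -0.25 to 0.17, so the highest r belonged to a same-numbered pair. The labels do not state pairs and the numbers were not taken as pairs in the main fit, which does not exclude pairing. The alternatives were other centring and normalisation, a filter on dim genes, other uses of probe sets, other variance models, a replicate block and leaving out each array.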

Additional observations from a re-analysis of the deposited data

How the results depend on the processing

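None of the 10 genes, and no gene of the whole table, passed the adjusted threshold in limma with any of the 15 alternatives run. At an unadjusted p under 0.05 the count of the 10 was 0 in each alternative except array weights, where it was 1, SPRY1 at -0.28 (limma adjusted p = 0.805). Over the alternatives that adjusted p ran from 0.678 to 0.998. Over all genes that count was 937, and it was 567 with the dimmest 40% left out, where fewer genes were tested, and 543 without wild-type replicate 2, where the cause was not tested. The median of the 10 differences lay between -0.021 and 0.039 with single arrays left out and between -0.030 and 0.0033 otherwise, and DDX5 between -0.58 and -0.36 and between -0.51 and -0.39.

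SPRY1, SPRY4, ETV4 and PHLDA1 kept their direction in every alternative that gave them a value, as did DDX5 and DUSP5. With single arrays left out, SPRY4 lay between -0.15 and -0.0067 and ETV4 between 0.025 and 0.20, both smallest without wild-type replicate 2. The values of 6 of the 10 genes changed sign in at least 1 alternative, and the cause was not tested. SPRED2 was -0.013 with arrays centred on the median, -0.013 after repeated quantile normalisation, -0.017 after cyclic loess and -0.045 with array weights. ETV5 was -0.0033, -0.0044, -0.0083 and -0.032 in the same 4 settings, and ERRFI1 was 0.018 with array weights. With single arrays left out, SPRY2 ran from -0.17 to 0.043, SPRED1 from -0.11 to 0.067, SPRED2 from -0.058 to 0.062, ERRFI1 from -0.097 to 0.093, ETV1 from -0.033 to 0.19 and ETV5 from -0.22 to 0.18. Of the related genes that changed sign, CIC ran from -0.060 to 0.035, ATXN1 from -0.023 to 0.17, DET1 from -0.073 to 0.15, DUSP6 from -0.050 to 0.24 and DUSP4 from -0.34 to 0.033. With single arrays left out, SOS2, COP1, ELK1 and PHLDA2 kept their direction. Each had an unadjusted limma p under 0.05 without at least 1 array. These p were picked from 6 fits for each gene, and SOS2, ELK1 and PHLDA2 were named for large differences. Each such fit gave between 543 and 1353 of all 18417 genes an unadjusted p under 0.05. The share of all genes with such a p in at least 1 fit was not counted.

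With the replicate number as a replicate block, 0 genes passed the adjusted threshold and 1149 had an unadjusted p under 0.05. The block left the SPRY1 difference at -0.21 (limma adjusted p = 0.793) and changed no call at the adjusted threshold. SOS2 had an unadjusted limma p of 0.0111 with the block (adjusted p = 0.791), against 0.061 without it. For ELK1, PHLDA2 and COP1 the unadjusted limma p with the block was 0.106, 0.066 and 0.134. The dim filter removed SPRY4, ERRFI1 and ETV1, which have no value there, and a low signal on these arrays cannot be told from background.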
